A study of Homo sapiens with 5 samples.

Results

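Glucose uptake, glycolysis, lactate handling and the hypoxia pathway were followed through 36 genes in a melanoma and a melanocyte line after silencing of BPTF, the largest subunit of the NURF chromatin remodelling complex. The genes were taken by symbol, matched to Ensembl identifiers by their GENCODE 29 names, and all 36 were found among the 31029 genes that the count tables of both lines list. They are 4 transporters, 18 genes of the glycolytic steps and lactate dehydrogenase, 3 PFKFB genes, 4 pyruvate dehydrogenase kinases, 4 genes of the hypoxia-inducible factor (HIF) and its prolyl hydroxylases, and 3 further HIF targets.

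Glycolysis splits glucose into pyruvate in the cytosol. Pyruvate is either reduced to lactate and exported with a proton, or enters mitochondria, where pyruvate dehydrogenase turns it into acetyl-CoA unless a PDK enzyme phosphorylates and blocks it. Several steps are carried out by isoenzymes from separate genes, and many of these genes are known targets of HIF, whose alpha subunit is marked for degradation by oxygen-dependent prolyl hydroxylases.

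The 5 RNA-seq libraries came from 501Mel, a human melanoma cell line (n = 2), and Hermes 3A, an immortalised line of human melanocytes (n = 3). All cells of both lines carried a lentiviral shRNA against BPTF (shBPTF) and had been selected for 5 days with puromycin at 3 µg/ml. Libraries without the knockdown were not analysed here. The study lists 2 shBPTF vectors, and the labels do not say which was used in either line. Any difference in vector cannot be told apart from line. Both lines were grown with foetal calf serum in RPMI, and the Hermes 3A medium also held the phorbol ester TPA, cholera toxin, human stem cell factor and endothelin-1, so that line and medium cannot be told apart in any difference given here. Each group is 1 line, nothing in the labels says whether replicates were separate cultures, and p-values measure only the spread between these libraries.

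Each library held 30073071 to 43032311 counts, at which 3 counts are worth 0.0697 to 0.0998 CPM (counts scaled to a common library total), a limit that covers counting error only. BPTF itself was at 57.1 and 63.7 CPM in 501Mel cells and at 48.7 to 54.9 CPM in Hermes 3A cells, which does not check the knockdown without control libraries. All 7 melanocyte lineage markers were detected in both lines, with a summed level of 12314 to 19421 CPM in 501Mel cells and 31778 to 34864 CPM in Hermes 3A cells, and DCT was the one far lower in Hermes 3A cells (1034 and 1284 CPM against 7.85, 8.70 and 13.3). Of 5 fibroblast markers, whose sum was 4.17 to 17.1 CPM in 501Mel cells and 83.4 to 192 CPM in Hermes 3A cells, COL1A2 made up most of the Hermes 3A sum with 74.0 to 190 CPM, against at most 0.104 CPM in 501Mel cells. COL1A1, LUM and PDGFRA were at 0.731 to 8.08 CPM in 501Mel cells and 0.486 to 7.83 CPM in Hermes 3A cells with log2 fold changes of 2.35, 0.65 and 0.94 that did not pass, and DCN was at or below 0.158 CPM in every library. The macrophage marker CD68 was at 34.0 and 92.2 CPM in 501Mel cells and at or below 0.265 CPM in Hermes 3A cells while PTPRC was at or below 0.0450 CPM throughout, and the part of these markers in the results was not tested. Replicate 1 of Hermes 3A stood apart from the other 2 replicates of that line, with a chi-square per gene of 99.8 and 105 against them, where those 2 gave 22.2 between them. The 2 replicates of 501Mel gave 77.8 between them, and so also lay further apart than those 2 of Hermes 3A.

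After shBPTF, the glucose transporter SLC2A1, the lactate transporter SLC16A1, the kinase PDK4 and the glycolytic enzyme PGK1 were higher in 501Mel cells than in Hermes 3A cells. The lactate transporter SLC16A3, the regulator PFKFB4, the enolase ENO2, the kinase PDK2 and the phosphofructokinases PFKL and PFKM were among 14 genes that were lower. Of the 35 members with enough counts to be tested, 18 passed an adjusted p of 0.05 by edgeR's quasi-likelihood test, or 51.4%, where 48.2% of all 17975 genes tested passed. The share that differed was therefore near that of the whole transcriptome, and its split was uneven: 11.4% of the members were higher and 40% lower in 501Mel cells, against 24.2% and 24.0% of all genes. With a change of at least 2-fold asked for as well, 3 members were higher and 9 lower, or 12 of 35 in all, where 34.3% of all genes passed. The median log2 fold change of the members, given here always as 501Mel minus Hermes 3A, was -0.43, and that of all genes tested was 0.02. No test was made of these shares.

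**Figure D1:**
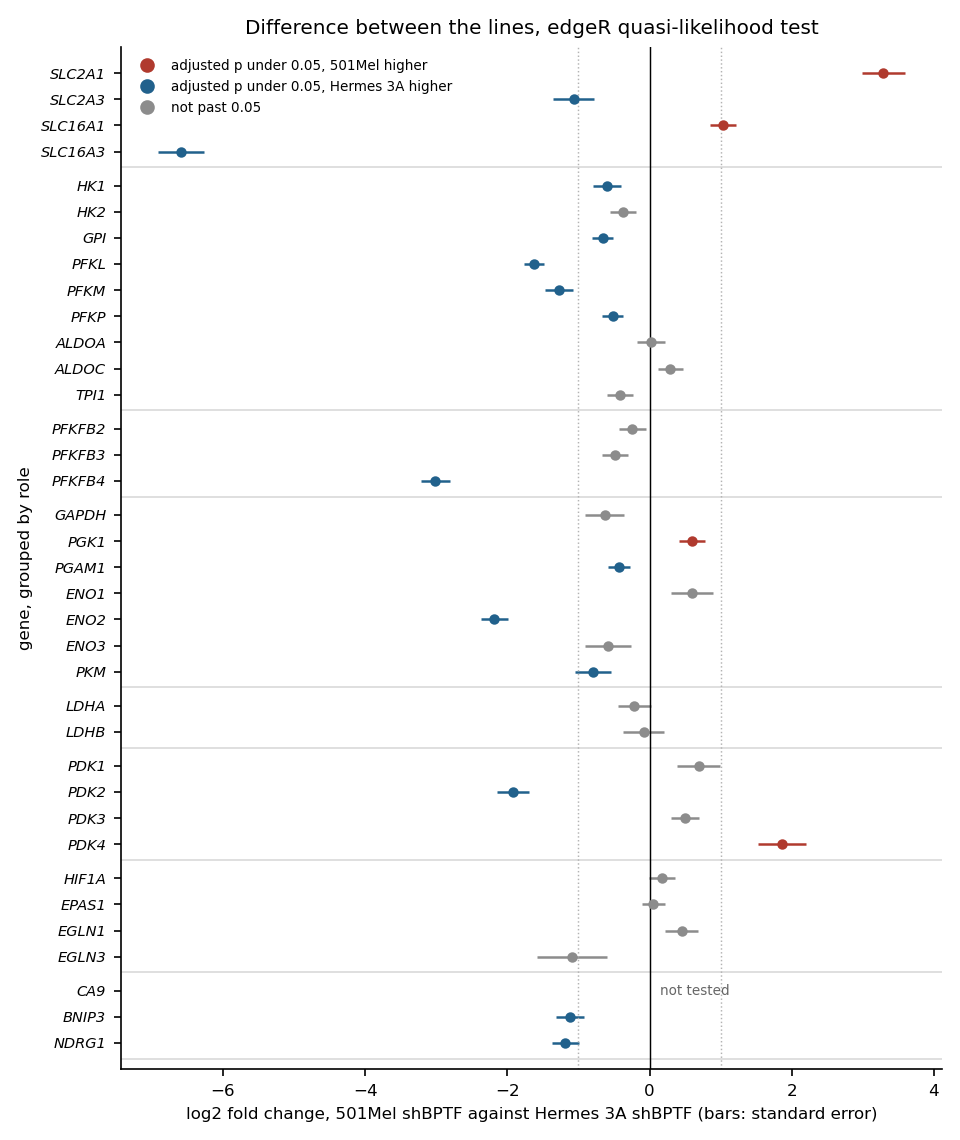
Log2 fold change of 501Mel shBPTF against Hermes 3A shBPTF for the 35 genes tested, in groups by role and with CA9 named as not tested, with the standard error of the edgeR quasi-likelihood fit as bars and dotted lines at a 2-fold change. SLC2A1 at 3.29 and SLC16A3 at -6.59 lie at the ends, and the lactate dehydrogenases and the HIF genes lie among the grey points that did not pass.

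Glucose enters through facilitative transporters, of which GLUT1, encoded by SLC2A1, is the widespread form and GLUT3, encoded by SLC2A3, the form known for its high affinity. SLC2A1 (ENSG00000117394, chromosome 1) was at 415 and 496 CPM in the 501Mel libraries and at 66.7, 39.9 and 32.9 CPM in the Hermes 3A libraries. Every 501Mel library was far above every Hermes 3A library, and the fold change was 9.79 (log2 fold change 3.29 ± 0.30 SE, adjusted p = 0.000234). SLC2A3 (ENSG00000059804, chromosome 12) went the other way, with 31.1 and 18.0 CPM in 501Mel cells, against 62.8, 40.1 and 51.6 CPM in Hermes 3A cells. The groups did not overlap, and SLC2A3 was 2.10-fold higher in Hermes 3A cells (log2 fold change -1.07 ± 0.29 SE, adjusted p = 0.0192). This call was lost without 501Mel replicate 2 (log2 fold change -0.74, adjusted p = 0.0889). A fit without a 501Mel replicate, here and below, sets 1 library against 3, takes its spread from the Hermes 3A libraries alone and assumes that the lone library varies like them.

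Divided by the length of the principal transcript, SLC2A1 made up 93.4% and 96.7% of the summed signal of the 2 transporter genes in 501Mel cells. In Hermes 3A cells its share was 53.1%, 51.5% and 40.5%. The mean share was thus 95.1% ± 2.32 (SD, n = 2) against 48.4% ± 6.89 (SD, n = 3), with 1 form dominant in 501Mel cells and both near the same level per length in Hermes 3A cells. A two-sided exact permutation test gave p = 0.2 for this share, which is the smallest value that 2 libraries against 3 allow, and the same limit holds for every share below. The ratio of SLC2A1 to SLC2A3 counts within a library, which depends neither on length nor on library scaling, was 13.3 and 27.6 in 501Mel cells, against 1.06, 0.995 and 0.637 in Hermes 3A cells. On average the ratio was 21.9-fold higher in 501Mel cells.

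Lactate leaves and enters cells through monocarboxylate transporters, of which MCT1, encoded by SLC16A1, works in both directions and MCT4, encoded by SLC16A3, is known as the export form of glycolytic tissues and as a HIF target. SLC16A1 (ENSG00000155380, chromosome 1) was at 348 and 349 CPM in 501Mel cells, against 143, 160 and 208 CPM in Hermes 3A cells. It was 2.04-fold higher in 501Mel cells, with no overlap between the lines (log2 fold change 1.03 ± 0.18 SE, adjusted p = 0.00353). SLC16A3 (ENSG00000141526, chromosome 17) had 15 and 8 counts in the 501Mel libraries, or 0.338 and 0.209 CPM. The Hermes 3A libraries held 1145, 1107 and 734 counts, or 29.3, 26.7 and 24.8 CPM. SLC16A3 was thus close to the 3-count limit in 501Mel cells and well measured in Hermes 3A cells, and its difference was the largest of all members (log2 fold change -6.59 ± 0.32 SE, adjusted p = 2.35e-05). The ratio of the pooled counts was 97.5, with a 95% counting interval of 64.8 to 154 (exact binomial).

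SLC16A3 overlaps the gene CSNK1D on the opposite strand over 482 bases of exon, and CSNK1D had 3359 and 3413 counts in 501Mel cells, against 6615 to 9896 in Hermes 3A cells. Whether the counting used strand is not given in the sources used here. CSNK1D differed far less between the lines than SLC16A3 did, and reads shared between the pair were not tested. Per length, SLC16A1 made up 99.9% ± 0.0238 (SD, n = 2) of the 2 transporter genes in 501Mel cells. Its share in Hermes 3A cells was 84.4%, 86.9% and 90.3%, or 87.2% ± 2.96 (SD, n = 3), so that SLC16A1 was the main form in both lines and SLC16A3 a measurable minor form in 1 of them. Outside the 36 genes, the family member SLC16A7, which encodes the high-affinity MCT2, was at 33.8 and 32.0 CPM in 501Mel cells, against 4.53, 2.41 and 3.00 CPM in Hermes 3A cells (log2 fold change 3.31 ± 0.29 SE, adjusted p = 0.000218).

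**Figure D2:**
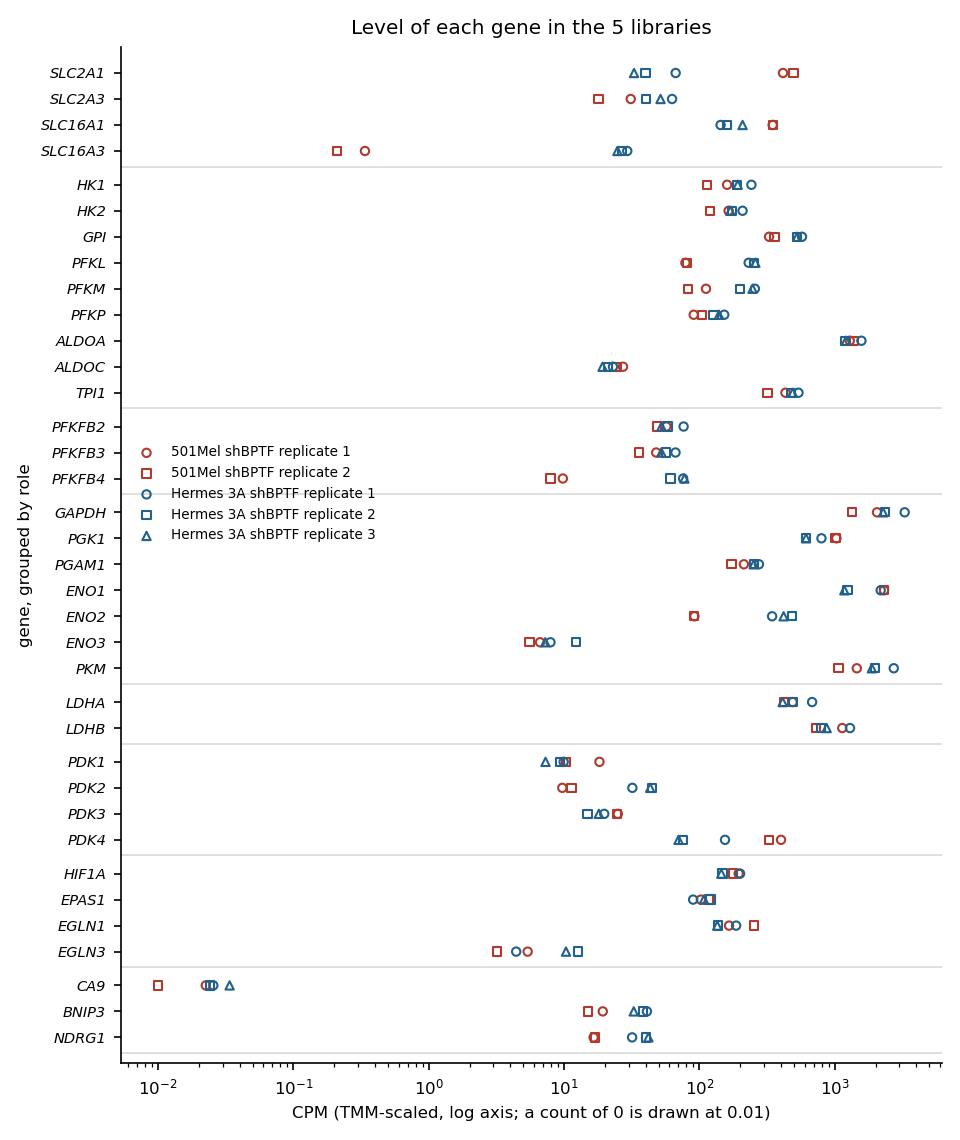
CPM of each of the 36 genes in each of the 5 libraries on a log axis, with 501Mel shBPTF in red and Hermes 3A shBPTF in blue and a symbol for each replicate. SLC16A3 sits near the 3-count limit in both 501Mel libraries, CA9 at 0 or 1 count in all 5 libraries, and the red and blue points of LDHA, LDHB, HIF1A and EPAS1 overlap.

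In the first steps of glycolysis, which trap and split glucose, 5 of 9 genes were lower in 501Mel cells and none was higher, where 24.0% of all genes tested were lower and 24.2% higher. Phosphofructokinase commits the sugar to glycolysis, and its subunits come from 3 genes, the liver form PFKL, the muscle form PFKM and the platelet form PFKP. PFKL (ENSG00000141959, chromosome 21) was at 78.8 and 81.3 CPM in 501Mel cells, against 231, 252 and 259 CPM in Hermes 3A cells. PFKM (ENSG00000152556, chromosome 12) was at 112 and 82.2 CPM against 257, 198 and 247 CPM. PFKP (ENSG00000067057, chromosome 10) was at 90.7 and 104 CPM against 152, 127 and 139 CPM. None of the 3 overlapped between the lines, and the distance narrowed from PFKL (log2 fold change -1.63 ± 0.14 SE, adjusted p = 0.000181) through PFKM (-1.27 ± 0.20 SE, adjusted p = 0.00204) to PFKP (-0.52 ± 0.15 SE, adjusted p = 0.0231). The call of PFKP was lost without 501Mel replicate 1 (adjusted p = 0.133) and without Hermes 3A replicate 3 (adjusted p = 0.0605).

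The subunit mix therefore differed as well as the level. PFKP had the largest mean share per length in 501Mel cells, 39.0% ± 4.80 (SD, n = 2), and the smallest in Hermes 3A cells, 25.0% ± 1.33 (SD, n = 3). PFKL held 29.1% ± 1.33 (SD, n = 2) in 501Mel cells and had the largest mean share in Hermes 3A cells with 40.5% ± 3.75 (SD, n = 3). The share of PFKM overlapped between the lines, at 31.8% ± 6.13 (SD, n = 2) and 34.4% ± 2.76 (SD, n = 3). In 501Mel replicate 1 the shares of PFKM and PFKP were 36.2% and 35.6%, so that the lead of PFKP there rests on replicate 2. In Hermes 3A replicate 1 PFKM and PFKL were at 36.8% and 36.7%. The order within Hermes 3A cells also depended on the length used: with all exons of a gene counted, PFKM led with 35.99%, ahead of PFKP with 32.6% and PFKL with 31.4%, while PFKP still led in 501Mel cells with 47.6%. PFKM shares 628 bases of exon with SENP1 on the other strand. SENP1 had 2161 and 1251 counts in 501Mel cells, against 636 to 983 in Hermes 3A cells. That was at most 43.5% of the PFKM counts of a library, and reads shared between PFKM and SENP1 were not tested.

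Around phosphofructokinase, hexokinase 1, which traps glucose as its phosphate, was lower in 501Mel cells (HK1, log2 fold change -0.60 ± 0.20 SE, adjusted p = 0.0416). Glucose-6-phosphate isomerase was lower too (GPI, -0.66 ± 0.15 SE, adjusted p = 0.00902). The remaining genes of these steps, HK2, the aldolases ALDOA and ALDOC and the triose isomerase TPI1, did not pass, with log2 fold changes from -0.42 for TPI1 to 0.29 for ALDOC. HK1 kept its call in 6 of the 11 other fits, and lost it without 501Mel replicate 2 (adjusted p = 0.207) and without Hermes 3A replicate 1, 2 or 3 (adjusted p = 0.0622, 0.0514 and 0.0609). GPI lost it without 501Mel replicate 1 (adjusted p = 0.0590), and TPI1 passed only without that library (adjusted p = 0.0483).

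The aldolase share of ALDOA was between 98.3% and 98.8% in all 5 libraries and overlapped between the lines. HK1 held 60.4% to 60.9% of the 2 hexokinases per length in 501Mel cells, against 63.5% to 65.0% in Hermes 3A cells, a gap of 3.70 percentage points that was wider than the spread within either line. Which hexokinase leads in 501Mel cells depended on the length used, since HK1 was at 48.1% when all exons of a gene were counted.

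PFKFB enzymes make and break down fructose 2,6-bisphosphate, the strongest known activator of phosphofructokinase, and 1 of the 3 genes differed. That is 33.3% called, where 48.2% of all genes tested were. PFKFB4 (ENSG00000114268, chromosome 3), a HIF target, was at 9.79 and 7.93 CPM in 501Mel cells, against 75.8, 61.2 and 77.5 CPM in Hermes 3A cells. It was 8.06-fold higher in Hermes 3A cells, where all 3 libraries were several times above both 501Mel libraries (log2 fold change -3.01 ± 0.20 SE, adjusted p = 7.18e-05). PFKFB3, the form known for its high kinase activity, was at 47.9 and 35.7 CPM against 66.5, 56.7 and 52.3 CPM and did not pass (log2 fold change -0.48 ± 0.19 SE, adjusted p = 0.0679). Without 501Mel replicate 1 PFKFB3 did pass (adjusted p = 0.0476). PFKFB2, the heart form, was at 56.9 and 48.7 CPM against 76.4, 58.2 and 52.4 CPM, and its lines overlapped. PFKFB2 shares 315 bases of exon with YOD1 on the other strand, which had at most 109% of the PFKFB2 counts of a library. Reads shared between PFKFB2 and YOD1 were not tested.

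Per length, PFKFB4 was the smallest of the 3 in 501Mel cells with 12.7% and 13.0%. In Hermes 3A cells it was the largest with 45.2%, 45.0% and 53.1%. The mean shares were 12.9% ± 0.175 (SD, n = 2) and 47.8% ± 4.62 (SD, n = 3). PFKFB4 shares 289 bases of exon on the same strand with UCN2, which had 29 and 14 counts in 501Mel cells, against 1300, 476 and 444 in Hermes 3A cells, at most 43.8% of the PFKFB4 counts of a library. UCN2 thus moved in the same direction as PFKFB4, and reads shared between them were not tested.

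In the later steps, which yield ATP and pyruvate, 1 gene was higher and 3 lower in 501Mel cells among 7, or 57.1% called, near the 48.2% of all genes. Enolase makes phosphoenolpyruvate, and ENO1 is its general form, ENO2 the form of neurons and neuroendocrine cells, and ENO3 that of muscle. ENO2 (ENSG00000111674, chromosome 12) was at 91.8 and 91.3 CPM in 501Mel cells, against 344, 483 and 419 CPM in Hermes 3A cells. It was 4.54-fold higher in Hermes 3A cells (log2 fold change -2.18 ± 0.19 SE, adjusted p = 0.000196). ENO1 (ENSG00000074800, chromosome 1) was at 2311 and 2319 CPM in 501Mel cells, and at 2184, 1240 and 1177 CPM in Hermes 3A cells. Hermes 3A replicate 1 was close to the 501Mel level and the other 2 far below it, and ENO1 did not pass with all libraries (log2 fold change 0.59 ± 0.29 SE, adjusted p = 0.134). Without Hermes 3A replicate 1 it did (log2 fold change 0.92, adjusted p = 0.00449). ENO3 was at 6.64 and 5.56 CPM against 7.93, 12.3 and 7.26 CPM and did not pass (log2 fold change -0.59 ± 0.32 SE, adjusted p = 0.171). ENO3 shares 111 bases of exon with PFN1 on the other strand. PFN1 had 12755 to 36302 counts in a library and ENO3 213 to 509, and reads shared between them were not tested.

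ENO1 was the main enolase in every library. Its share per length was 96.4% and 96.5% in 501Mel cells, against 88.0%, 74.7% and 76.6% in Hermes 3A cells. ENO2 filled most of the remainder, with 3.16% ± 0.0180 (SD, n = 2) against 11.5%, 24.1% and 22.6%. The ratio of ENO1 to ENO2 counts was 25.2 and 25.4 in 501Mel cells, against 6.34, 2.57 and 2.81 in Hermes 3A cells, which was 7.07-fold higher in 501Mel cells on average.

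Of the other genes of these steps, PGK1, which makes the first ATP of the pathway, was 1.51-fold higher in 501Mel cells (log2 fold change 0.59 ± 0.18 SE, adjusted p = 0.0299). The pyruvate kinase gene PKM, which makes the last ATP, was lower (-0.80 ± 0.25 SE, adjusted p = 0.0340), as was the mutase PGAM1 (-0.43 ± 0.15 SE, adjusted p = 0.0497). GAPDH, the oxidising step of glycolysis and a common reference gene, was at a log2 fold change of -0.63 ± 0.27 SE and did not pass (adjusted p = 0.0947). The calls of PGK1, PKM and PGAM1 depended on the fit. PGK1 passed in 6 of the 11 other fits and PGAM1 in 4, and both lost the call without 501Mel replicate 2 (adjusted p = 0.0944 and 0.233) and without Hermes 3A replicate 2 (0.148 and 0.0862) or 3 (0.168 and 0.0877). PGK1 also lost it without 501Mel replicate 1 (0.104), PGAM1 without Hermes 3A replicate 1 (0.0570), and PKM without 501Mel replicate 2 (0.168) or Hermes 3A replicate 3 (0.0567).

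Compared per kb of principal transcript, the most abundant glycolytic RNAs, given below, were the same genes in both lines in another order. In 501Mel cells ENO1 led with 987 CPM per kb ± 2.30 (SD, n = 2), followed by GAPDH with 907 ± 266, ALDOA with 836 ± 43.7, LDHB with 605 ± 189 and PKM with 464 ± 101. In Hermes 3A cells GAPDH led with 1406 CPM per kb ± 300.3 (SD, n = 3), followed by ALDOA with 826 ± 135, PKM with 808 ± 171, ENO1 with 654 ± 241 and LDHB with 641 ± 177. Within 501Mel cells ENO1, GAPDH and ALDOA lay within the spread of GAPDH, and within Hermes 3A cells the ranks from ALDOA to LDHB lay within the spread of ENO1. The lowest of the glycolytic genes was ENO3 in both lines, with 4.01 and 6.02 CPM per kb.

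**Figure D3:**
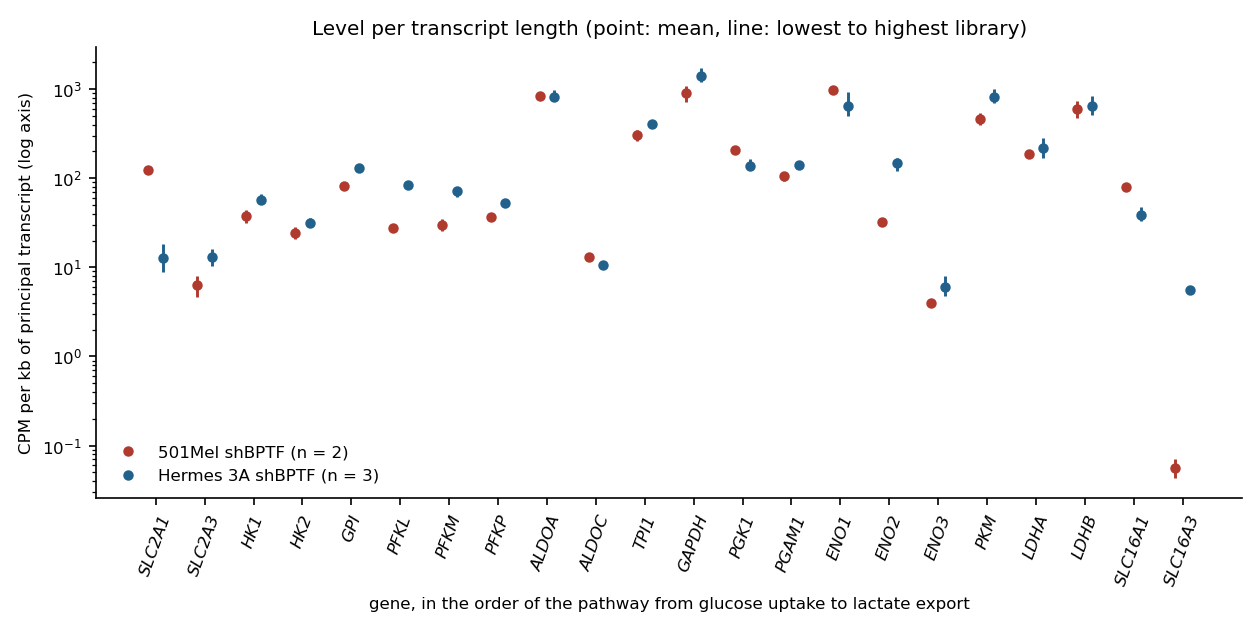
Mean CPM per kb of principal transcript on a log axis for the genes from glucose uptake to lactate export, with a line from the lowest to the highest library of each line. Red (501Mel shBPTF) lies above blue (Hermes 3A shBPTF) by the widest gap at SLC2A1 (124 against 12.7) and below it by the widest gap at SLC16A3 (0.0565 against 5.57).

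Summed over the 18 genes of the glycolytic steps and lactate dehydrogenase, the level was 11466 and 9750 CPM in 501Mel cells. In Hermes 3A cells it was 15399, 11354 and 11159 CPM. The lines overlapped, and the difference of means, -2029 CPM, gave p = 0.6 by a two-sided exact permutation test. With 1 library left out the difference ran from -649 CPM, without Hermes 3A replicate 1, through -1172 CPM, without 501Mel replicate 2, to -2887 CPM, without 501Mel replicate 1. These genes took 0.987% to 1.45% of all counts of a library. The libraries had been treated with a duplex-specific nuclease, which removes part of the most abundant cDNAs, and its effect on the abundant glycolytic RNAs was not tested.

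Lactate dehydrogenase interconverts pyruvate and lactate, with LDHA encoding the muscle-type and LDHB the heart-type subunit. Neither gene passed, with log2 fold changes of -0.22 ± 0.23 SE for LDHA (adjusted p = 0.473) and -0.08 ± 0.29 SE for LDHB (adjusted p = 0.831). LDHA was at 412 to 680 CPM and LDHB at 726 to 1296 CPM over the 5 libraries, and both overlapped between the lines. LDHB was the more abundant per length in every library: the LDHA share was 21.5% and 26.9% in 501Mel cells, against 25.0%, 28.3% and 23.1% in Hermes 3A cells. No difference in level or mix was detected at the lactate step with this spread, while the lactate transporters SLC16A1 and SLC16A3 did differ. PKM, whose enzyme makes the pyruvate, was called lower in 501Mel cells with all libraries, a call that depended on the fit. D-lactate dehydrogenase is a mitochondrial enzyme encoded by LDHD, outside the 36 genes. LDHD had 7 and 7 counts in 501Mel cells, close to the 3-count limit. It had 50, 188 and 153 in Hermes 3A cells (log2 fold change -4.40 ± 0.77 SE, adjusted p = 0.00332). The ratio of the pooled counts was 21.0, with a 95% counting interval of 12.35 to 38.7 that leaves out the spread between libraries.

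Pyruvate dehydrogenase kinases block the turning of pyruvate into acetyl-CoA within mitochondria, and 2 of the 4 genes differed, in opposite directions. That is 50% called, near the 48.2% of all genes tested. PDK4 (ENSG00000004799, chromosome 7), the form known to be induced by fasting and fatty acids, was at 401 and 326 CPM in 501Mel cells, against 155, 75.7 and 70.1 CPM in Hermes 3A cells. It was 3.63-fold higher in 501Mel cells (log2 fold change 1.86 ± 0.34 SE, adjusted p = 0.00401). PDK2 (ENSG00000005882, chromosome 17), a widely expressed form, was at 9.70 and 11.4 CPM against 31.9, 44.5 and 43.3 CPM. It was 3.79-fold higher in Hermes 3A cells (log2 fold change -1.92 ± 0.22 SE, adjusted p = 0.000591), and neither gene overlapped between the lines. Hermes 3A replicate 1 was nearest to the 501Mel libraries for both genes, and both kept their call without it.

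PDK1, a HIF target, was at 18.2 and 10.4 CPM against 9.92, 9.35 and 7.29 CPM and did not pass (log2 fold change 0.69 ± 0.30 SE, adjusted p = 0.0973). PDK3 was at 24.9 and 24.7 CPM against 19.8, 14.9 and 18.1 CPM and did not pass either (0.50 ± 0.19 SE, adjusted p = 0.0691). Both passed when a library was left out, PDK1 without 501Mel replicate 2 (adjusted p = 0.0359) and PDK3 without Hermes 3A replicate 1 (adjusted p = 0.0396). PDK4 was the main PDK gene per length, with 86.8% and 84.4% of the family in 501Mel cells, against 68.1%, 49.8% and 46.6% in Hermes 3A cells. PDK2 held 2.18% and 3.06% in 501Mel cells, against 14.6%, 30.4% and 29.9% in Hermes 3A cells. The ratio of PDK4 to PDK2 counts was 14.5-fold higher in 501Mel cells on average, between 28.7 and 41.3 there and between 1.62 and 4.84 in Hermes 3A cells.

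The HIF alpha subunits and the prolyl hydroxylases that sense oxygen showed no called difference. HIF1A and EPAS1, which encode the alpha subunits of HIF-1 and HIF-2, were at log2 fold changes of 0.18 ± 0.18 SE (adjusted p = 0.444) and 0.06 ± 0.17 SE (adjusted p = 0.803). The share of HIF1A per length was 71.5% and 66.3% in 501Mel cells, against 61.8% to 74.6% in Hermes 3A cells. The prolyl hydroxylase EGLN1, the main oxygen sensor of HIF, was at 0.45 ± 0.23 SE (adjusted p = 0.141). EGLN3, a hydroxylase that is itself a HIF target, was at 5.38 and 3.21 CPM in 501Mel cells, against 4.42, 12.7 and 10.3 CPM in Hermes 3A cells. Replicate 1 of Hermes 3A was within the 501Mel range for EGLN3 and the other 2 were above it, and the gene passed only without that replicate or by DESeq2 (log2 fold change -1.09 ± 0.49 SE, adjusted p = 0.106 with all libraries, and -1.44, adjusted p = 0.0132, without it). HIF activity is set largely by protein stability, which these RNA levels do not measure.

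Of the 3 further HIF targets, both that could be tested were lower in 501Mel cells, where 24.0% of all genes tested were lower. BNIP3 (ENSG00000176171, chromosome 10), a mitochondrial mitophagy receptor, was at 19.3 and 14.98 CPM in 501Mel cells, against 40.9, 38.4 and 32.7 CPM in Hermes 3A cells. NDRG1 (ENSG00000104419, chromosome 8), a stress-induced gene known from hypoxia and differentiation, was at 16.5 and 16.99 CPM against 31.8, 40.3 and 41.9 CPM. Neither overlapped between the lines, and the log2 fold changes were close to each other at -1.12 ± 0.20 SE for BNIP3 (adjusted p = 0.00351) and -1.18 ± 0.19 SE for NDRG1 (adjusted p = 0.00235). Processed pseudogenes of BNIP3 took 19.8% to 22.7% of the counts of BNIP3 and these copies together in both lines, so that the level of BNIP3 is less certain than its direction. CA9, a carbonic anhydrase widely used as a marker of hypoxia, had 1 and 0 counts in 501Mel cells and 1 count in each Hermes 3A library. CA9 was thus at or under the 3-count limit in every library, and no fold change is given.

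HIF binds the letters ACGTG or GCGTG, which were searched on both strands from 250 bases before to 50 bases after the start of each gene in RefSeq promoters (GRCh38.p14). Of the 32 members with an entry, 22 held at least 1 match, or 68.8%, where 48.4% of 27305 promoters did. The E-box CACGTG, which other factors also bind and which contains ACGTG, was in 4 member promoters (12.5%) against 7.43% of all. A match was present in 2 of 3 members that were higher, 6 of 12 that were lower and 13 of 16 that were not called, and in CA9, which was not tested. SLC2A3, PFKFB2, SLC16A1 and NDRG1 had no entry.

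Stretches of the promoter from 5 members are shown on the strand of the gene, with each match or its reverse complement in capitals, because they stand for each kind of result: PGK1 was higher in 501Mel cells, PFKFB4 and ENO2 were lower, LDHA was not called and CA9 was not detected above 3 counts.
PGK1 (chrX:78104034-78104062, + strand): gcgGCGTGccggACGTGacaaacggaagc
PFKFB4 (chr3:48556953-48556981, - strand): tgagttgggcatGCGTGgtcggaggccgg
ENO2 (chr12:6914450-6914478, + strand): acccgcgctcgtACGTGcgcctccgccgg
LDHA (chr11:18394464-18394492, + strand): cagcccgactcaCACGTGggttcccgcac
CA9 (chr9:35673898-35673926, + strand): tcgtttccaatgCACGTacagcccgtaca
The PGK1 stretch holds 2 matches, 211 and 202 bases before the start, of 4 in its window. The LDHA stretch holds an E-box, read as a match on each strand, 87 and 86 bases before the start, of 6 matches in its window. PFKFB4, ENO2 and CA9 have 1 match each, 166, 118 and 18 bases before the start. The 1 match of SLC2A1 reached past the start. SLC16A3, PDK2 and PDK4 had no match, which says only that these letters are not in that window.

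The 36 genes were set beside 3 lists of related genes, read from the same fit. Among 31 tested genes of glucose, pyruvate and glycerol phosphate metabolism outside the members, 3 were higher and 9 lower in 501Mel cells, or 38.7% called against 48.2% of all genes (9.68% higher and 29.03% lower against 24.2% and 24.0%), with a median log2 fold change of -0.06. The largest differences were LDHD and SLC16A7, given above, and GPD2, the mitochondrial glycerol phosphate dehydrogenase that passes cytosolic electrons to the respiratory chain. GPD2 was at 6.12 and 12.9 CPM in 501Mel cells, against 86.9, 79.7 and 89.7 CPM in Hermes 3A cells (log2 fold change -3.17 ± 0.33 SE, adjusted p = 0.000384). Both libraries of 501Mel were several times below all of Hermes 3A for this gene. The log2 fold change was -2.73 without 501Mel replicate 1 and -3.82 without 501Mel replicate 2.

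Among 27 tested genes of the wider hypoxia pathway, 2 were higher and 15 lower, or 63.0% called against 48.2% of all genes (7.41% higher and 55.6% lower against 24.2% and 24.0%), with a median log2 fold change of -0.67. The 3 with the largest differences were all nearly absent from 501Mel cells. PPP1R3C, which targets a phosphatase to glycogen, had 0 counts in both 501Mel libraries and 2712, 1121 and 672 in Hermes 3A cells, at least 564-fold higher there against a limit of 3 counts in each 501Mel library, or at least 348-fold without Hermes 3A replicate 1. ANGPTL4, a secreted inhibitor of lipoprotein lipase, had 3 and 3 counts against 414, 98 and 40, a ratio of 69.1 with a 95% counting interval of 31.5 to 189 that leaves out the spread between libraries, and of 26.8 without Hermes 3A replicate 1. CA12, a carbonic anhydrase of the cell surface, had 3 and 5 counts against 335, 22 and 34. Replicate 1 of Hermes 3A was far above its other replicates for all 3 genes, and the call of CA12 (adjusted p = 0.0234) was lost without 501Mel replicate 1 (0.123) or 2 (0.0871).

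Among 17 genes of the pentose phosphate pathway and glycogen metabolism, which branch from glucose 6-phosphate, 4 were higher and 6 lower, or 58.8% called against 48.2% of all genes (23.5% higher and 35.3% lower against 24.2% and 24.0%), with a median log2 fold change of -0.21. PHKA1, a subunit of the kinase that starts glycogen breakdown, had 3 and 6 counts in 501Mel cells, close to the 3-count limit. It had 93, 82 and 72 in Hermes 3A cells (log2 fold change -4.32 ± 0.55 SE, adjusted p = 0.000931). The ratio of the pooled counts was 20.6, with a 95% counting interval of 10.7 to 45.6 that leaves out the spread between libraries. The log2 fold change of PHKA1 was -3.83 without 501Mel replicate 1 and -5.01 without 501Mel replicate 2. UGP2, which makes the UDP-glucose used for glycogen, was higher in 501Mel cells, with 211 and 310 CPM against 70.8, 58.3 and 51.9 CPM (2.11 ± 0.21 SE, adjusted p = 0.000336). TALDO1, an enzyme of the non-oxidative pentose phosphate branch, was lower, with 92.2 and 117 CPM against 388, 253 and 267 CPM (-1.53 ± 0.23 SE, adjusted p = 0.00195).

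Over the 35 members tested, 27 had CPM ranges that did not overlap between the lines, where 69.6% of all genes did not. In 8 of them 501Mel cells were above and in 19 Hermes 3A cells, where 35.7% of all genes had 501Mel above and 34.0% Hermes 3A. Calls held under every setting for 11 members, SLC2A1, SLC16A1, SLC16A3, PFKL, PFKM, PFKFB4, ENO2, PDK2, PDK4, BNIP3 and NDRG1, which passed in each of the 11 other fits, 2 of which have a single 501Mel library.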

How the data were processed

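Total RNA was depleted of ribosomal RNA and the libraries were normalised with a duplex-specific nuclease before sequencing. The authors deposited whole-number read counts per gene, not normalized, with Ensembl identifiers. The submitters' processing notes name CASAVA 1.8, TopHat 1.4.1, Bowtie 0.12.7 and hg19, and the counting program and its annotation are not given in the sources used here. The tables list 37259 genes for 501Mel and 34033 for Hermes 3A, of which 6230 and 3004 are not in the other table. Whether both lines were counted with the same annotation is not given, and any such difference cannot be told apart from line. The 31029 genes in both tables, with 99.3% to 99.9% of the counts, were used. CPM are counts over TMM-scaled library sizes. The lines were compared with the edgeR 4.0.16 quasi-likelihood test in R 4.3.3 (TMM, filterByExpr, Benjamini-Hochberg over 17975 genes), and SE was the log2 fold change over the root of F. Isoenzyme shares and sums were tested with two-sided exact permutation tests (scipy 1.17.1). Lengths and chromosomes are those of GENCODE 29 on GRCh38, a later build than the files', and promoters those of RefSeq. The scripts were tested on simulated data. The members, lists and tests were chosen with earlier results of these data known. Values in every library are given for members called with a change of at least 2-fold and for their isoenzyme families, and from each further list the 3 called genes with the largest log2 fold change are named. LDHA, LDHB and EGLN3 values were added after they were seen. PGAM2 and EGLN2 were not analysed here.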

Additional observations from a re-analysis of the deposited data

How the results depend on the processing

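Other fits used RLE size factors, library totals alone, no filter on low counts, DESeq2, the replicate number as a block, each library left out in turn, and, chosen after the data were seen, the genes of either table. Over them the members called numbered 3 to 6 higher and 10 to 15 lower, and with a 2-fold minimum 3 and 9. All genes higher ranged from 2864 to 4595 with a library left out, the lowest without 501Mel replicate 1. Of members not called, ALDOA turned to -0.000426 with RLE size factors, -0.0201 without the filter, -0.0159 by DESeq2, -0.0309 with the replicate block and -0.11 to 0.14 with a library left out. LDHB turned to 0.000393 with library totals and ranged from -0.44 to 0.19, and EPAS1 from -0.0712 to 0.15, with a library left out, and the cause was not tested.

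The replicate numbers share no stated origin, and same-numbered libraries deviated with a correlation of 0.102 and 0.115 over 2 pairs. Pairs of different number gave -0.115 and -0.102. Deviations from the mean of 2 libraries mirror each other, so these values are not independent and do not show a shared replicate effect. Only Hermes 3A has a replicate 3, so with the replicate block the line difference rests on 2 libraries of each line. In that fit 3 members were higher and 13 lower, and of all genes 3627 and 3834, against 4354 and 4315. PFKP, PGK1 and PGAM1 lost their call (adjusted p = 0.0665, 0.110 and 0.0873) and PFKFB3 gained one (0.0441). HK1 and PGAM1 also lost theirs with library totals (0.0534 and 0.0764), where PDK3 gained one (0.0355), PGAM1 with RLE size factors (0.0519), and GAPDH gained one without the filter (0.0299). The first-named gene's share did not overlap in 7 of 11 families, and in 7 to 9 under other lengths or with a library left out. For scale, 69.6% of all genes had CPM that did not overlap, a measure of single genes and not of shares. Where a gene is at or under 3 counts, depth limits what can be said.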
